A study of Homo sapiens with 9 samples.

Results

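The HOX genes are the homeobox genes of the HOXA, HOXB, HOXC and HOXD clusters, and every gene whose symbol was HOX, a cluster letter and a paralog number was taken. This gave 39 of the 26364 genes in the count tables, 11 of HOXA on chromosome 7, 10 of HOXB on chromosome 17, 9 of HOXC on chromosome 12 and 9 of HOXD on chromosome 2. The choice used no measured value. RNA was sequenced from MDA-MB-231 cells, an established triple-negative breast cancer line with a mesenchymal form, in 9 libraries. Of these, 3 came from the clone shGLO1#2 and 3 from the clone shGLO1#1, both stably carrying a short hairpin RNA (shRNA) against GLO1, the glyoxalase that detoxifies methylglyoxal, and 3 came from the control clone shNT with a non-targeting shRNA. No group had a further treatment, and each group was 1 clone of the same line. The sources used here do not say whether libraries of a group were separate cultures, so p-values measure the spread between these libraries, and a difference due to the hairpin and a difference between clones cannot be told apart.

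HOX genes encode transcription factors that give body regions their identity along the head-to-tail axis. Within a cluster they lie in the order of their paralog numbers, and in the embryo low numbers act early and towards the head while high numbers act late and towards the tail. Adult cells commonly keep a part of this pattern, held by Polycomb and Trithorax proteins, so the set of HOX genes in use reads as a record of where in the body a cell came from. Breast epithelium and breast cancer lines are known to transcribe members of several clusters.

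Gene counts per library were 15314238 to 18495576, and GLO1 stood at 14.02 to 15.5 CPM in shGLO1#2, 64.2 to 65.9 CPM in shGLO1#1 and 312 to 323 CPM in shNT, as the labels say. CPM are counts scaled to the size of the library, here after TMM scaling. The summed CPM of 6 genes typical of the line (VIM, CD44, KRT8, KRT18, AXL and CAV1) was 7979 to 8193 in shGLO1#2, 6692 to 7625 in shGLO1#1 and 7342 to 8159 in shNT. For 6 luminal epithelial markers the sums were 399 to 497, 441 to 520 and 412 to 523 CPM in the same order of groups, nearly all of it KRT19, with ESR1 and PGR at a mean of 0.255 CPM or less. For 5 leukocyte markers they were 3.18 to 4.96, 2.41 to 3.36 and 7.56 to 10.7 CPM, of which PTPRC was 2.57, 1.21 and 8.37 CPM on average while CD3E had at most 1 count per library. For 3 endothelial markers they were 3.07 to 5.85, 2.51 to 3.27 and 0.782 to 1.28 CPM. Most of this was PECAM1, at 3.21, 2.71 and 0.856 CPM on average, and VWF averaged 0.841, 0.214 and 0.144 CPM. CDH5 had no count in shGLO1#1 or shNT. The part of these markers in the HOX results was not tested.

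Start regions are shown first for HOX genes at the borders between transcribed and silent genes and for a pair that rose or was highest in the shGLO1 clones. HOXA13 was transcribed beside the silent HOXA11, and HOXD4 was transcribed beside the silent HOXD8. HOXC4 and HOXC5, the pair, share 1 annotated start region. The windows run from 250 bases before to 50 bases after an annotated start, are taken from RefSeq on GRCh38.p14 and are written 5′ to 3′ on the strand of the gene. They are chr7:27200042-27200341 on the minus strand for HOXA13, chr7:27185183-27185482 on the minus strand for HOXA11, chr2:176151300-176151599 on the plus strand for HOXD4, chr2:176129455-176129754 on the plus strand for HOXD8 and chr12:54016638-54016937 on the plus strand for HOXC4 and HOXC5. Capitals mark GC boxes (GGGCGG) and CCAAT boxes (CCAAT) on either strand.
HOXA13: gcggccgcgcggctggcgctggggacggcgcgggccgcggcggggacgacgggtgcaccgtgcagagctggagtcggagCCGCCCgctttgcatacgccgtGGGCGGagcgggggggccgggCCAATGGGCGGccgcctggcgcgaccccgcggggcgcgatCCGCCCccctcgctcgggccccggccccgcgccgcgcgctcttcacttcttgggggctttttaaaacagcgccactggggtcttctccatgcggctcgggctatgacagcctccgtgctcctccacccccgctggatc
HOXA11: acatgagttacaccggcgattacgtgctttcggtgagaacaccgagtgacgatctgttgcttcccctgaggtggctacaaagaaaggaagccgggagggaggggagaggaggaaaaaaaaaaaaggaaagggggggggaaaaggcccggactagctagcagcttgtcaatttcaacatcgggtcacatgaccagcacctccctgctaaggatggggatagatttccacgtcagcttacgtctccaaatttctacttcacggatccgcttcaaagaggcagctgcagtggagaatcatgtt
HOXD4: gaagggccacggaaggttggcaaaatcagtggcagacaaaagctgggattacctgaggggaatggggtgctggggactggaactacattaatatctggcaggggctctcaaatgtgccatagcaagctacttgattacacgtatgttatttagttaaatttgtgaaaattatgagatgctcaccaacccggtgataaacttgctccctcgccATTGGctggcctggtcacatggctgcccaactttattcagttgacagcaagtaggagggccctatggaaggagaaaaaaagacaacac
HOXD8: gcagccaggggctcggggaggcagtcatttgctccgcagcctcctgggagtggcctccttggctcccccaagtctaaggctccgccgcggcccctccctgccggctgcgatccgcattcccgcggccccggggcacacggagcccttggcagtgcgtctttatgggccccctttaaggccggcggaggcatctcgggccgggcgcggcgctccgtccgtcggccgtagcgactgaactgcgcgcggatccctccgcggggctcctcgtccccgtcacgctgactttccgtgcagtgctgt
HOXC4 and HOXC5: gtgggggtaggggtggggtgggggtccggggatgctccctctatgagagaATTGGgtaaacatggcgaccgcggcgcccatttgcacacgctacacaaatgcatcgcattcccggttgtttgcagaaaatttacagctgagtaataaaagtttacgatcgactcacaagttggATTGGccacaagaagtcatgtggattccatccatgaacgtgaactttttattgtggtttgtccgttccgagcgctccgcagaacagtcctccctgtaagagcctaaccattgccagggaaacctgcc
The HOXA13 window held 4 GC boxes and 1 CCAAT box, 76.3% G and C and 44 CpG dinucleotides. The HOXA11 window held neither box, 51.3% G and C and 13 CpG. The silent HOXD8 also lacked both boxes and held 71.7% G and C with 34 CpG, while the transcribed HOXD4 held 1 CCAAT box, 47.3% G and C and 4 CpG. The shared HOXC4 and HOXC5 window held 2 CCAAT boxes, 51.7% G and C and 15 CpG. G and C content thus ran in opposite directions across the HOXA and HOXD borders.

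Promoter windows were matched for 20 of the 39 genes, 27 windows in all. Their median number of CpG was 22, against 14 over all 35116 windows of the table, at a median G and C content of 58.0%, against 58.7%. Windows of the 13 genes with no count in any library had a median of 22.5 CpG and those of the 7 genes with a count had 19. These 7 were HOXA13, HOXC4, HOXC5, HOXD1, HOXD3, HOXD4 and HOXD12, which had a single count, and the window of HOXC4 and HOXC5 entered for each. HOXB9, HOXB3, HOXC6 and HOXC8 had no matched window, HOXB1 alone stood for HOXB, and some genes supplied several windows. The medians and the shares below thus describe the matched windows and not the family. A CCAAT box on either strand was found in 66.7% of HOX windows, against 34.6% of all, and a GC box in 48.1%, against 44.95%. The letters TATAAA of a TATA box were found in 18.5%, against 11.5%, and TGATTNAT, a site that HOX and PBX proteins bind together, in 7.41%, against 2.82%. The letters AGGTCA, to which retinoic acid receptors bind, were in 0 HOX windows, against 13.8% of all. All letters were searched on both strands, and the printed boxes share no base with each other. A match is a description of the letters and no evidence of binding.

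Of 38 HOX genes described, 19 had no count in any of the 9 libraries, and they were not spread evenly over the clusters. In HOXA, 9 of 10 genes described were at 0, among them HOXA11. In HOXD, 5 of 9 were at 0 (HOXD8, HOXD9, HOXD10, HOXD11 and HOXD13), and HOXD12 had a single count in a single library of shGLO1#1. In HOXC, HOXC10, HOXC11 and HOXC12 were at 0, and in HOXB the genes at 0 were HOXB1 and HOXB13, the gene known from prostate and hindgut that lies apart from its cluster. A count of 0 in all 9 libraries allows a level of up to 0.0199 CPM, counting error only.

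With the 9 libraries pooled, nearly all HOX counts came from 3 stretches and from HOXA13, which lies at the far end of its cluster. The first stretch ran from HOXB3 to HOXB9 with a trace of HOXB2 (6 counts). The next ran from HOXC4 to HOXC9 with a trace of HOXC13 (8 counts), and the last comprised HOXD1, HOXD3 and HOXD4. Parts of these were near absent from shNT. Over its 3 libraries HOXB2, HOXB5 and HOXB6 had 2, 3 and 1 counts, HOXC4 and HOXC9 had 3 and 5, and HOXA13 had 9. At 0.5 CPM or more in every library of a group, 10 genes were detected in shGLO1#2, 10 in shGLO1#1 and 7 in shNT. The 7 of shNT (HOXB3, HOXB4, HOXB9, HOXC6, HOXD1, HOXD3 and HOXD4) were detected in all 3 groups. shGLO1#2 had HOXB6, HOXC5 and HOXC8 besides these, and shGLO1#1 had HOXA13, HOXC4 and HOXC8. At a mean of 0.2 CPM the numbers were 14, 15 and 10 in shGLO1#2, shGLO1#1 and shNT, and at a mean of 1 CPM they were 8, 8 and 7. Genes of any kind with a count were also fewest in shNT. They numbered 16882 to 17067 per library in shGLO1#2, 16884 to 16967 in shGLO1#1 and 16329 to 16662 in shNT.

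**Figure D1:**
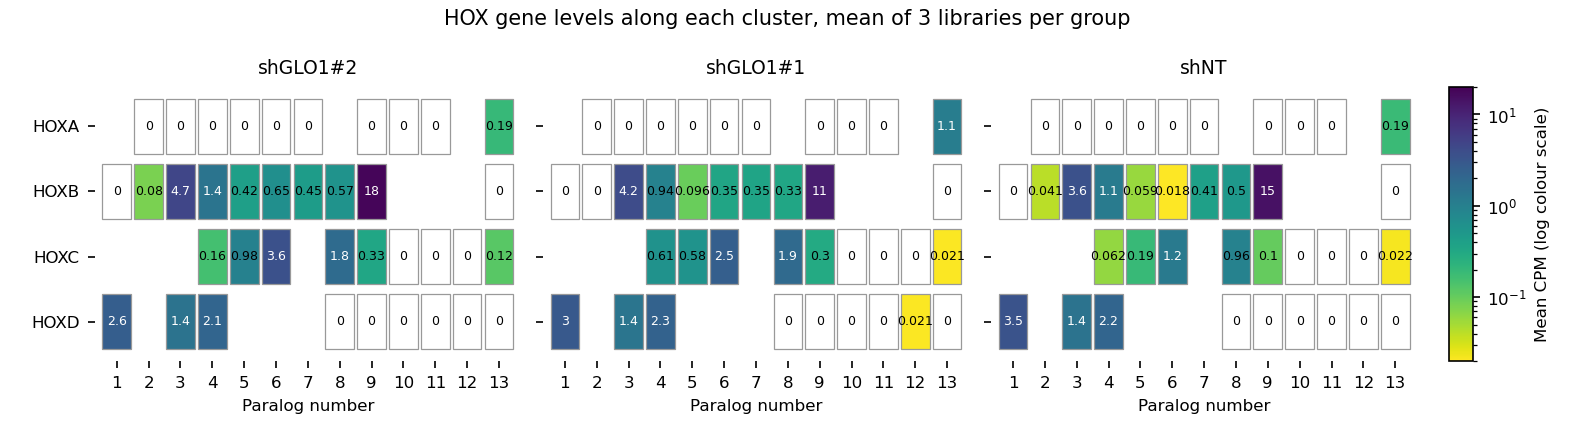
Mean CPM of 38 HOX genes (rows: clusters, columns: paralog number, colour on a log scale, white with 0: no count) in shGLO1#2, shGLO1#1 and shNT, 3 libraries each. Genes with a count form 1 stretch each in HOXB, HOXC and HOXD, apart from traces of HOXC13 and HOXD12, and several within the stretches are near 0 in shNT. The HOXA genes drawn before HOXA13 have no count, and HOXA13 reads 0.193 CPM in shGLO1#2, 1.09 CPM in shGLO1#1 and 0.188 CPM in shNT.

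HOXB9, a thoracic-level gene that in mice acts with its group-9 paralogs in mammary gland development, led the HOX genes in every group. Per kilobase of annotated exon it stood at 6.96 CPM per kb in shGLO1#2, 4.40 in shGLO1#1 and 5.65 in shNT. On the same scale HOXD4, which acts in the hindbrain and neck region, followed at 1.47, 1.59 and 1.47 CPM per kb, and HOXD1, known in mice for the wiring of pain-sensing neurons, at 1.32, 1.53 and 1.75 CPM per kb. HOXC6, a thoracic gene, stood at 1.12, 0.773 and 0.363 CPM per kb. HOXC8, used in mice in the motor neurons of the forelimb, stood at 0.973, 0.992 and 0.506 CPM per kb. HOXB3, a hindbrain gene, stood at 0.752, 0.665 and 0.578 CPM per kb. Below HOXB9 the order thus depended on the group, with HOXD1 next in shNT and HOXD4 next in both shGLO1 clones, but the libraries of HOXD1 and HOXD4 overlapped on this scale within every group. Those of HOXB9 lay above the libraries of either gene in all 3 groups. Exon lengths were those of GENCODE v29 on GRCh38, which may differ from the annotation behind the counts.

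By cluster, HOXB gave 66.3 ± 1.502% of all HOX counts in shGLO1#2, 56.1 ± 2.82% in shGLO1#1 and 67.8 ± 1.52% in shNT (SD, n = 3 libraries each). HOXC gave 17.7 ± 1.66% in shGLO1#2, 18.8 ± 1.61% in shGLO1#1 and 8.26 ± 2.03% in shNT. The HOXC shares were 16.6 to 19.6% and 17.6 to 20.6% in the libraries of the shGLO1 clones, against 6.09 to 10.1% in those of shNT, with no overlap. HOXD gave 15.5 ± 1.26% in shGLO1#2, 21.6 ± 2.49% in shGLO1#1 and 23.3 ± 0.999% in shNT. HOXA13 gave 0.463 ± 0.296%, 3.46 ± 0.750% and 0.626 ± 0.0524% in the same order.

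By position, genes of paralog groups 1 to 3 gave 22.1 ± 1.15% of HOX counts in shGLO1#2, 27.4 ± 2.57% in shGLO1#1 and 28.4 ± 0.621% in shNT. Groups 4 to 8 gave 31.0 ± 1.02%, 31.9 ± 0.472% and 21.999 ± 2.61%. Groups 9 to 13 gave 46.9 ± 0.556%, 40.7 ± 3.01% and 49.6 ± 2.171%, of which HOXB9 alone was 45.3%, 36.2% and 48.6%. The middle groups held a larger share in every library of both shGLO1 clones than in any library of shNT, 30.2 to 32.1% and 31.6 to 32.4% against 19.6 to 24.8%. These shares are descriptions, with no test.

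**Figure D2:**
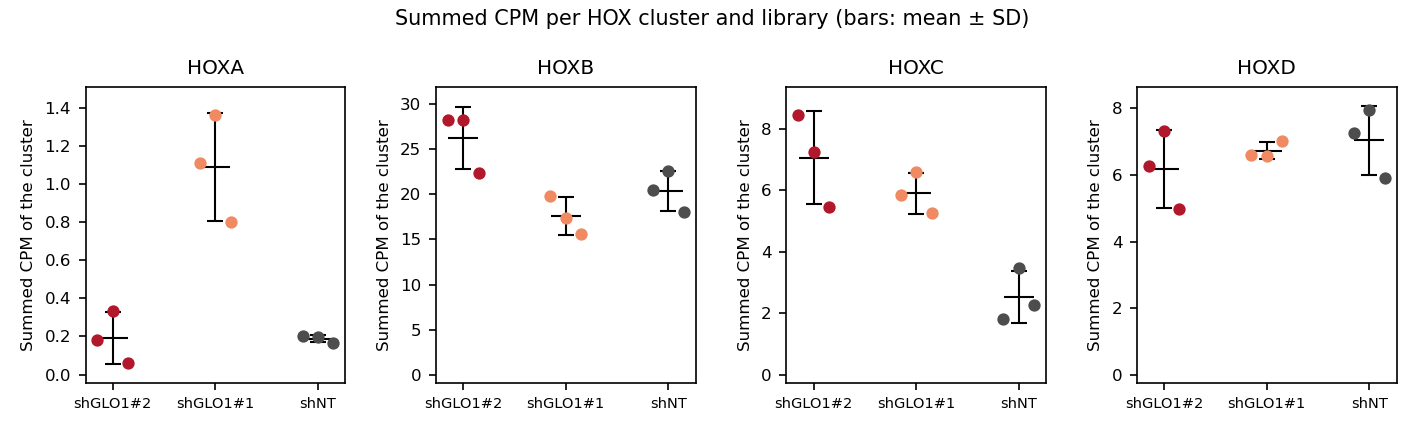
Summed CPM of each HOX cluster in each library (points) with mean ± SD (bars) for shGLO1#2, shGLO1#1 and shNT, each panel on its own linear axis. The HOXC sum was 7.06 ± 1.51 CPM in shGLO1#2 and 5.90 ± 0.669 CPM in shGLO1#1, against 2.51 ± 0.848 CPM in shNT, while the HOXD sums of the groups overlap.

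All HOX counts together summed to 39.7 ± 5.97 CPM in shGLO1#2, 31.3 ± 2.40 CPM in shGLO1#1 and 30.1 ± 3.87 CPM in shNT. The HOXB sum was 26.3 ± 3.42, 17.6 ± 2.103 and 20.4 ± 2.23 CPM, and the HOXD sum was 6.18 ± 1.18, 6.73 ± 0.243 and 7.05 ± 1.03 CPM.

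Which HOX genes differed between the clones was tested gene by gene with edgeR's quasi-likelihood test over all 13704 genes that passed a filter on low counts, with Benjamini-Hochberg adjusted p-values. Calls needed an adjusted p under 0.05 together with a log2 fold change beyond 1 in either direction. The filter left 11 of the 39 HOX genes, HOXA13, HOXB3, HOXB4, HOXB6, HOXB9, HOXC5, HOXC6, HOXC8, HOXD1, HOXD3 and HOXD4. HOXA13 passed it only through the 3 libraries of shGLO1#1, HOXB6 only through the 3 of shGLO1#2, and HOXC5 through 2 libraries of each shGLO1 clone and none of shNT. Genes kept in this way were selected for a high level in a shGLO1 clone. The counts of calls below therefore describe these members and are no support for a pattern.

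In shGLO1#2 against shNT, 3 of the 11 tested HOX genes rose (HOXB6, HOXC5 and HOXC6) and 0 fell, which is 27.3%. Of all genes tested, 7.68% were called in this comparison, 5.09% as higher. In shGLO1#1 against shNT, 4 rose (HOXA13, HOXB6, HOXC5 and HOXC6) and 0 fell, 36.4%, where 8.73% of all genes were called and 5.98% were higher. At an unadjusted p under 0.05, 6 of the 11 HOX genes passed in shGLO1#2 against shNT, 6 up and 0 down. In shGLO1#1 against shNT 6 passed as well, 5 up and 1 down. Each is a share of 54.5%, beside 46.3% and 52.5% of all genes tested in these comparisons. For shGLO1#2 against shGLO1#1 the share was 45.5% (5 genes), beside 53.1% of all genes. DESeq2 called no HOX gene lower against shNT in either clone. Between the clones, shGLO1#2 against shGLO1#1, 1 gene fell (HOXA13) and 0 rose, 9.09%, where 7.09% of all genes were called and 3.75% were lower. With no fold limit, 3, 5 and 3 HOX genes passed in the same order of comparisons, while 38.1%, 45.7% and 46.5% of all genes did. The median log2 fold change of the 11 genes was 0.32, 0.20 and 0.18, beside 0.00, 0.00 and -0.01 over all genes tested. That median includes HOXA13, HOXB6 and HOXC5, which the filter kept through shGLO1 libraries alone. It is therefore no support for a shift of the HOX genes. Both shGLO1 clones were set against the same 3 shNT libraries.

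**Figure D3:**
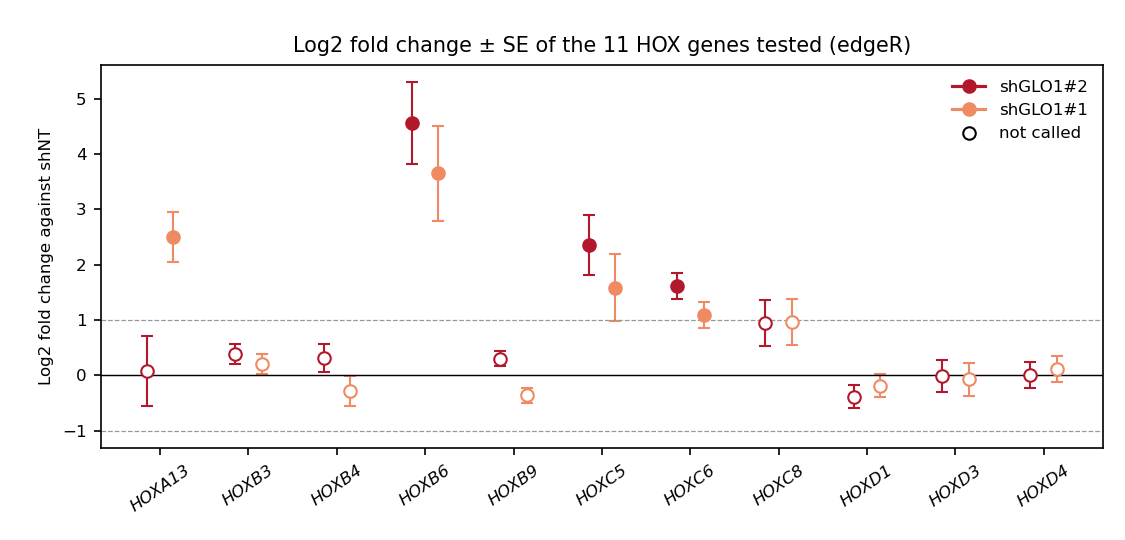
Log2 fold change against shNT (vertical axis) with its standard error for the 11 HOX genes tested, shGLO1#2 in red and shGLO1#1 in orange, filled where called by edgeR (adjusted p under 0.05 and beyond the dashed lines at 1 and -1). HOXB6, HOXC5 and HOXC6 are filled in both clones, HOXA13 in shGLO1#1 only, and the 3 HOXD genes lie between -0.38 and 0.12.

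HOXA13, which patterns the digits, the lower urogenital tract and the hindgut, was highest in shGLO1#1. Its counts were 3, 6 and 1 in shGLO1#2, 18, 25 and 14 in shGLO1#1 and 3, 3 and 3 in shNT, or 0.183, 0.335 and 0.0621 CPM, 1.11, 1.36 and 0.798 CPM, and 0.202, 0.196 and 0.166 CPM. All 3 libraries of shGLO1#1 lay above all 6 others, and those of shGLO1#2 spanned those of shNT. HOXA13 rose in shGLO1#1 against shNT (log2 fold change 2.50, SE 0.45, adjusted p = 0.000455) and was lower in shGLO1#2 than in shGLO1#1 (-2.42, SE 0.43, adjusted p = 0.000473). The filter kept HOXA13 only through the libraries of shGLO1#1, where it is high, so these 2 p-values are no support for a difference. Against shNT the log2 fold change of HOXA13 in shGLO1#2 was 0.08 (SE 0.63, adjusted p = 0.933). The exons of HOXA13 overlap no other gene in GENCODE v29, and its nearest HOX neighbours stayed at 0 in all libraries.

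HOTTIP, a long noncoding RNA transcribed from just beyond HOXA13 and known to help keep the last HOXA genes active, had 2, 2 and 3 counts in shGLO1#2, 4, 3 and 6 in shGLO1#1 and 1, 0 and 0 in shNT. It was too rare for the filter. The ratio of group sums was 6.70 for shGLO1#2 over shNT (7 counts against 1, exact 95% interval 0.861 to 302) and 12.04 for shGLO1#1 over shNT (13 counts against 1, 1.81 to 512). These Clopper-Pearson intervals cover counting error only. The group sums of HOTTIP and HOXA13 were both highest in shGLO1#1, while in shGLO1#2 and shNT they were 7 and 1 for HOTTIP and 10 and 9 for HOXA13.

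**Figure D4:**
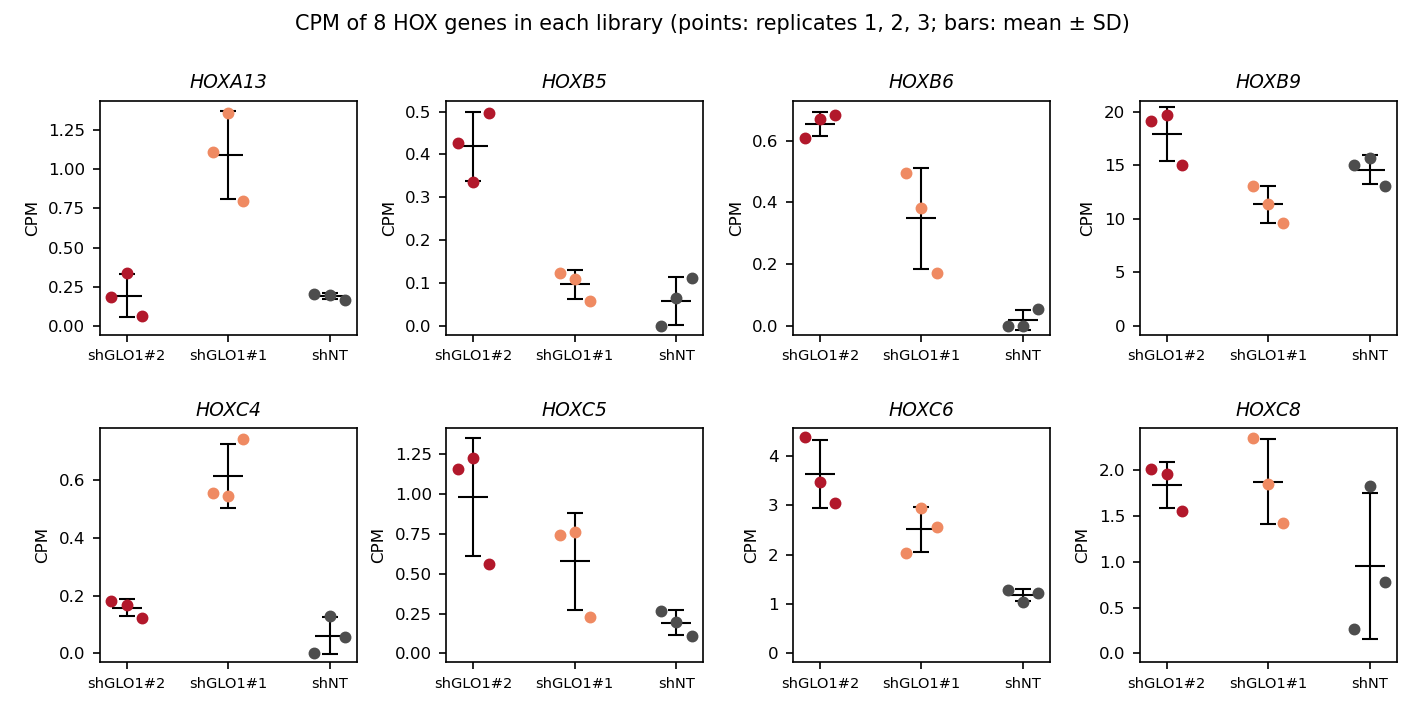
CPM of 8 HOX genes in each library (points in the order of replicates 1, 2 and 3) with mean ± SD (bars), shGLO1#2 left, shGLO1#1 in the middle and shNT right, each panel on its own linear axis. HOXA13 and HOXC4 are highest in shGLO1#1, HOXB5, HOXB6 and HOXC6 in shGLO1#2, and the shNT libraries of HOXC8 spread from 0.269 to 1.83 CPM.

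In HOXB, HOXB6, a mid-cluster gene known from blood-forming and lung tissue, was near absent from the control. It had 10, 12 and 11 counts in shGLO1#2, 8, 7 and 3 in shGLO1#1 and 0, 0 and 1 in shNT, or 0.654 ± 0.0393, 0.349 ± 0.164 and 0.0185 ± 0.0320 CPM. The groups did not overlap. The ratio of group sums was 31.6 for shGLO1#2 over shNT (33 counts against 1, exact 95% interval 5.29 to 1285) and 16.7 for shGLO1#1 over shNT (18 against 1, 2.63 to 695). HOXB6 was called higher in both (adjusted p = 0.000275 and 0.00325 in shGLO1#2 and shGLO1#1 against shNT, fitted log2 fold changes 4.55, SE 0.74, and 3.65, SE 0.85, which with 1 count in shNT depend on the prior count). HOXB6 passed the filter only through the libraries of shGLO1#2, so these calls describe the gene and are no support for a pattern. Between the clones its log2 fold change was 0.91 (SE 0.42, adjusted p = 0.0921). HOXB6 shares exon bases with HOXB-AS3 on the opposite strand, which had no count.

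HOXB5, next to HOXB6 and known in the lung and the gut's nervous system, had 7, 6 and 8 counts in shGLO1#2, 2, 2 and 1 in shGLO1#1 and 0, 1 and 2 in shNT. The libraries of shGLO1#2 lay above all others, and those of shGLO1#1 overlapped shNT. It did not pass the filter. The ratio over shNT was 6.70 for shGLO1#2 (21 counts against 3, exact 95% interval 2.00 to 35.1) and 1.54 for shGLO1#1 (5 against 3, 0.300 to 9.94). HOXB7 and HOXB8, the next genes along, were at 0.454 and 0.575 CPM in shGLO1#2, 0.350 and 0.334 CPM in shGLO1#1 and 0.410 and 0.499 CPM in shNT, with all groups overlapping.

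HOXB9 had 19.1, 19.7 and 15.1 CPM in shGLO1#2, 13.1, 11.4 and 9.64 CPM in shGLO1#1 and 15.1, 15.6 and 13.1 CPM in shNT. The mean of shGLO1#2 lay above that of shNT and the mean of shGLO1#1 below it, and the libraries overlapped shNT in both. On the log2 scale shGLO1#2 differed from shNT by 0.31 (SE 0.13, adjusted p = 0.0856) and shGLO1#1 by -0.36 (SE 0.14, adjusted p = 0.0460, under the fold limit). That adjusted p was 0.116 with no TMM factors, 0.0517 with the filter at a mean of 1 CPM, and 0.0512 to 0.172 when the library left out was replicate 2 of any group, replicate 3 of shGLO1#1 or replicate 1 of shNT. It was 0.00383 with the replicate number as a block, 0.0418 with DESeq2, 0.0282 with no filter and 0.0368 with only the groups compared. When any other library was left out it was 0.0257 to 0.0467. Between the clones HOXB9 differed by 0.66 on the log2 scale (SE 0.13, adjusted p = 0.00116, under the fold limit), and the 3 libraries of shGLO1#2 lay above the 3 of shGLO1#1.

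At the other end of HOXB, HOXB3 had 5.48, 4.69 and 3.97 CPM in shGLO1#2, 4.32, 4.19 and 3.99 CPM in shGLO1#1 and 3.29, 4.37 and 3.21 CPM in shNT. HOXB4, known for its use in expanding blood stem cells, had 1.34, 1.73 and 1.18 CPM in shGLO1#2, 0.864, 0.979 and 0.969 CPM in shGLO1#1 and 1.01, 1.43 and 0.996 CPM in shNT. Neither passed the test in any comparison (lowest adjusted p 0.0789, HOXB4 in shGLO1#2 against shGLO1#1), and they share exon bases on 1 strand, where the counter cannot assign reads. HOXB2 had 1, 1 and 2 counts in shGLO1#2, 0 in shGLO1#1 and 1, 0 and 1 in shNT.

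In HOXC, HOXC5 and HOXC6 rose in both shGLO1 clones, and HOXC6 most firmly. This gene had 4.39, 3.46 and 3.04 CPM in shGLO1#2, 2.04, 2.94 and 2.57 CPM in shGLO1#1 and 1.28, 1.04 and 1.22 CPM in shNT. The 3 groups did not overlap. HOXC6 rose in shGLO1#2 (log2 fold change 1.61, SE 0.23, adjusted p = 9.04e-05) and in shGLO1#1 (1.09, SE 0.24, adjusted p = 0.00218) against shNT. Between the clones it differed by 0.52 (SE 0.20, adjusted p = 0.0470, under the fold limit). HOXC6 passed the filter in all 9 libraries, so its call does not rest on the group that carried it through.

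HOXC5, its neighbour, had 1.16, 1.23 and 0.558 CPM in shGLO1#2, 0.741, 0.762 and 0.228 CPM in shGLO1#1 and 0.269, 0.196 and 0.111 CPM in shNT. The lowest library of shGLO1#1 lay within the range of shNT. Against shNT it rose by 2.36 on the log2 scale in shGLO1#2 (SE 0.54, adjusted p = 0.00341) and by 1.59 in shGLO1#1 (SE 0.60, adjusted p = 0.0441). HOXC5 passed the filter only through libraries of the shGLO1 clones, so these calls describe the gene and are no support for a pattern. The call in shGLO1#1 ended with DESeq2 (adjusted p = 0.0665) and when any of shNT replicates 1, 2 and 3 or shGLO1#1 replicates 1 and 2 was left out (adjusted p 0.0539 to 0.156).

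HOXC4, known for its part in antibody class switching in B cells, was highest in the same clone as HOXA13. It had 3, 3 and 2 counts in shGLO1#2, 9, 10 and 13 in shGLO1#1 and 0, 2 and 1 in shNT. All libraries of shGLO1#1 lay above all others, whereas HOXC5 and HOXC6 averaged most in shGLO1#2. The ratio over shNT was 2.55 for shGLO1#2 (8 counts against 3, exact 95% interval 0.613 to 14.9) and 9.88 for shGLO1#1 (32 against 3, 3.09 to 50.4). It did not pass the filter. HOXC4, HOXC5 and HOXC6 share exon bases on the same strand, and reads there cannot be assigned to 1 of them.

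Without the filter, 4 HOX genes were called in shGLO1#2 against shNT, with HOXB5 added (adjusted p = 0.00866), and 5 in shGLO1#1 against shNT, with HOXC4 added (adjusted p = 0.000393). Between the clones 3 were called, HOXA13 and HOXC4 lower (adjusted p = 0.00760 for HOXC4) and HOXB5 higher (adjusted p = 0.0196) in shGLO1#2. In these fits, 6.77%, 7.29% and 6.15% of all 19581 genes were called in the same order of comparisons.

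HOXC8 had 2.01, 1.95 and 1.55 CPM in shGLO1#2, 2.35, 1.85 and 1.43 CPM in shGLO1#1 and 0.269, 1.83 and 0.775 CPM in shNT. Replicate 2 of shNT lay within the range of both shGLO1 clones and the other control libraries lay below it. Set against shNT, its log2 fold change reached 0.94 in shGLO1#2 (SE 0.42, adjusted p = 0.0934) and 0.96 in shGLO1#1 (SE 0.42, adjusted p = 0.0749). Without shNT replicate 2 it was 1.75 (adjusted p = 0.00471) and 1.77 (adjusted p = 0.00371). The clones did not differ by the test (-0.02, SE 0.37, adjusted p = 0.972).

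HOXC9 had 8, 7 and 2 counts in shGLO1#2, 2, 9 and 5 in shGLO1#1 and 0, 3 and 2 in shNT, with overlap. HOXC13, the hair and nail gene at the end of the cluster, had 4, 1 and 1 counts in shGLO1#2, 1, 0 and 0 in shGLO1#1 and 0, 1 and 0 in shNT. HOTAIR, the noncoding RNA transcribed between HOXC11 and HOXC12, had 4, 2 and 0, then 0, 2 and 0, then 0, 0 and 1 counts in shGLO1#2, shGLO1#1 and shNT. At these depths no difference was detectable for either (ratio of shGLO1#2 over shNT 5.74, 6 counts against 1, exact 95% interval 0.697 to 264 for each).

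The HOXD genes were the most even. HOXD1 had 2.62, 3.18 and 2.05 CPM in shGLO1#2, 2.53, 3.16 and 3.36 CPM in shGLO1#1 and 3.83, 3.59 and 2.93 CPM in shNT. HOXD3, a neck-vertebra gene, averaged 1.42, 1.37 and 1.44 CPM, and HOXD4 averaged 2.15, 2.33 and 2.15 CPM in shGLO1#2, shGLO1#1 and shNT. All groups of the 3 genes overlapped. Against shNT the log2 fold changes were -0.38 (SE 0.21) for HOXD1, -0.01 (SE 0.30) for HOXD3 and 0.01 (SE 0.23) for HOXD4 in shGLO1#2, and -0.18 (SE 0.20), -0.07 (SE 0.30) and 0.12 (SE 0.23) in shGLO1#1. edgeR called 0 of the 3 in any comparison, with 0 at an unadjusted p under 0.05 and 0 by DESeq2. Of all genes tested, edgeR called 7.09 to 8.73% in these comparisons, and 46.3 to 53.1% had an unadjusted p under 0.05. With only 3 genes, 0 calls do not set HOXD apart from genes in general. HAGLR, the noncoding RNA opposite HOXD3, had 24.1, 27.03 and 22.7 CPM in shGLO1#2, 22.1, 21.3 and 17.6 CPM in shGLO1#1 and 25.1, 26.4 and 23.4 CPM in shNT. Against shNT it differed by -0.02 on the log2 scale (SE 0.10, adjusted p = 0.907) in shGLO1#2 and -0.29 (SE 0.10, adjusted p = 0.0312, under the fold limit) in shGLO1#1. The kit did not mark strand, so reads where HAGLR and HOXD3 overlap cannot be told apart.

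Of 24 antisense and other noncoding transcripts of the clusters in the tables, 15 had no count in any library, among them HOTAIRM1 and the HOXA antisense RNAs HOXA-AS2, HOXA-AS3, HOXA10-AS and HOXA11-AS. HAGLR alone passed the filter.

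Most protein-coding genes around the clusters were transcribed, also beside HOX genes that were not. SKAP2, at the other end of HOXA from HOXA13, had 38.8, 42.02 and 42.5 CPM and HIBADH, beyond HOXA13, had 43.5, 67.8 and 58.5 CPM in shGLO1#2, shGLO1#1 and shNT, while 9 HOXA genes between them had no count. EVX1 and EVX2, homeobox genes that lie at the ends of HOXA and HOXD, were at 0. Of 38 flanking genes in the tables, 31 were tested. COPZ2, a coat-protein subunit gene near HOXB1, rose in shGLO1#2 against shNT (1.55, against 0.360 CPM in shNT, log2 fold change 2.04, SE 0.38, adjusted p = 0.000805), and stood at 0.386 CPM in shGLO1#1. It passed the filter only through the 3 libraries of shGLO1#2, so its call is no support for a pattern. CHN1 near HOXD fell in shGLO1#1 against shNT (10.7, against 22.02 CPM in shNT, -1.03, SE 0.11, adjusted p = 5.79e-06). That call ended with no TMM scaling (-0.96) and without shNT replicate 1 or shGLO1#1 replicate 3 (-0.97 in each).

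**Figure D5:**
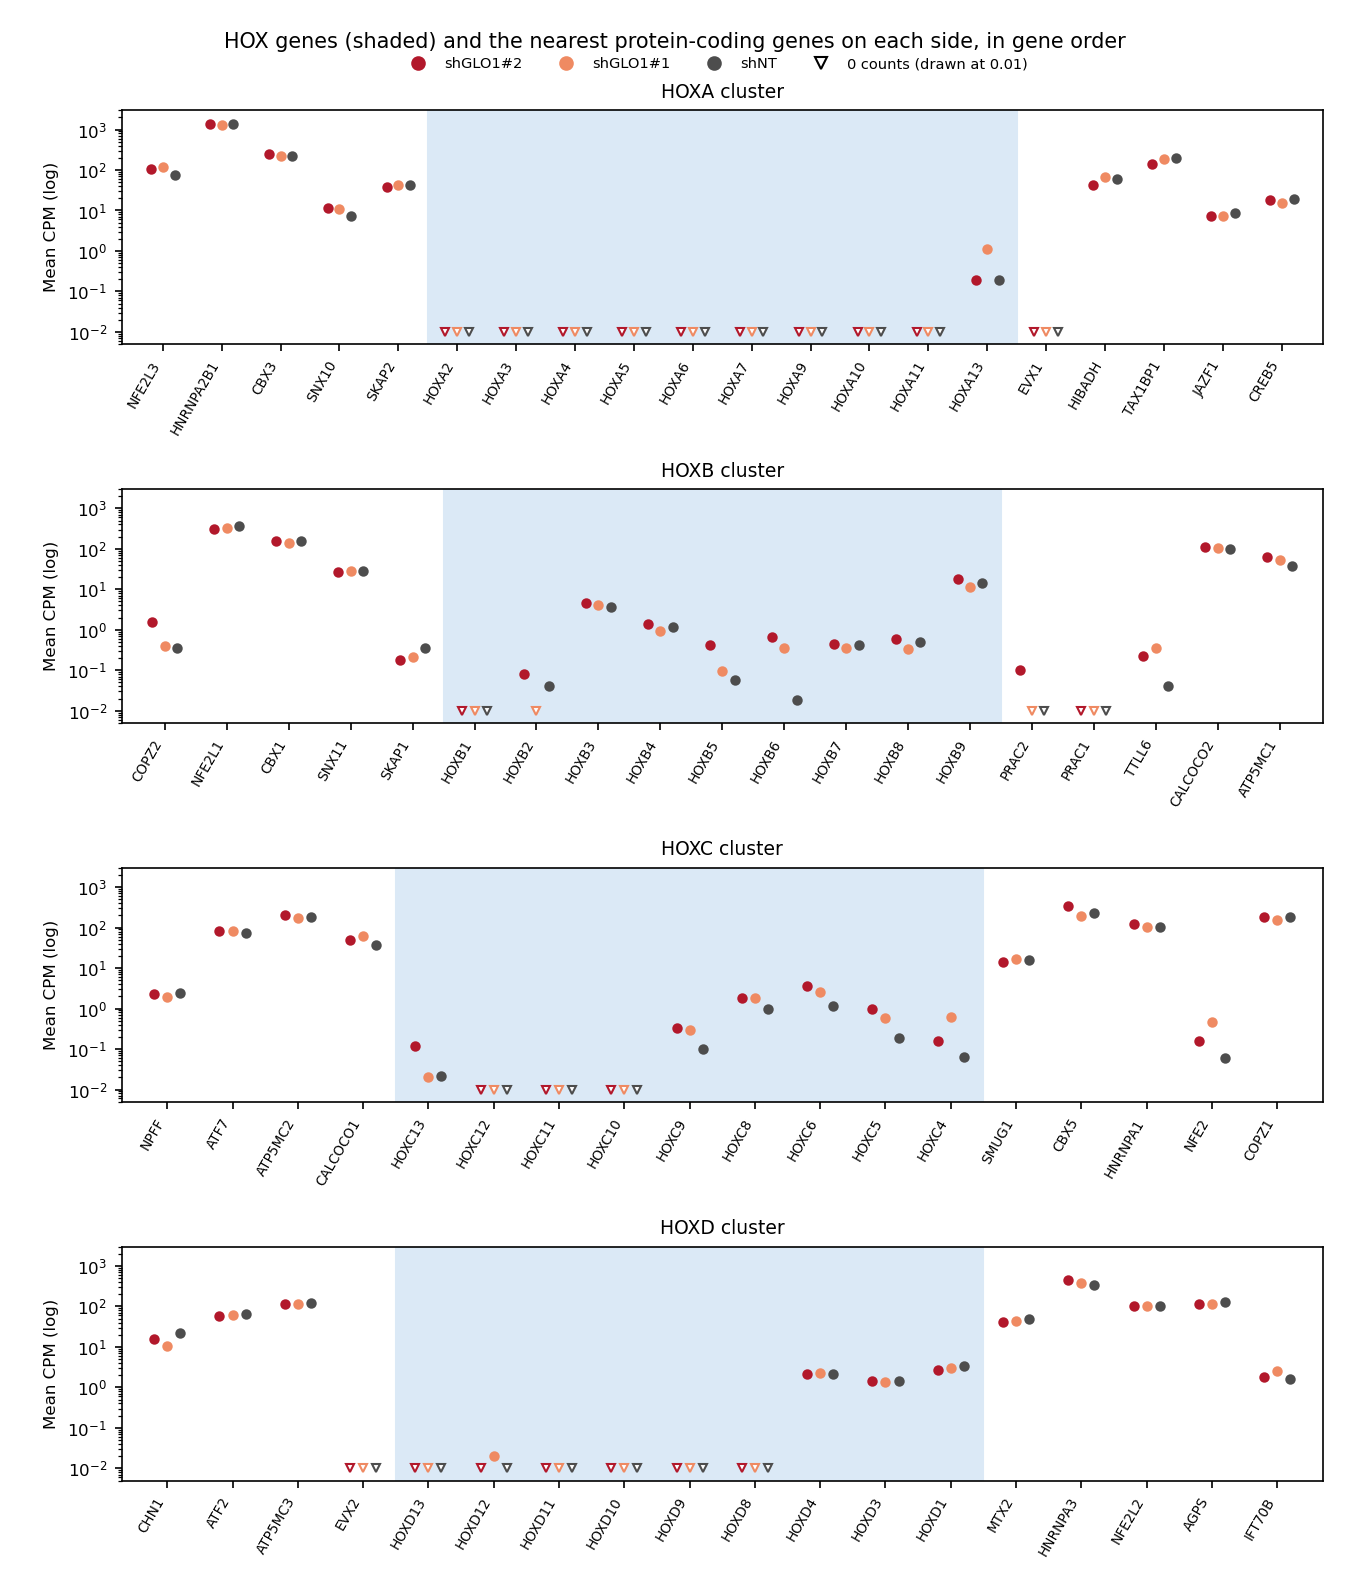
Mean CPM (log axis) of HOX genes (shaded) and the nearest protein-coding genes on each side in the order of the reference annotation, for shGLO1#2, shGLO1#1 and shNT, with open triangles at 0.01 for genes with no count. The flanking genes of HOXA and HOXD stand mostly above 1 CPM in all groups beside HOX genes with no count, and EVX1 and EVX2 have none.

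HOX proteins bind DNA with TALE homeodomain partners of the PBX, MEIS and PKNOX families. Of 9 such genes 8 were tested, and among them MEIS1 and PKNOX2 rose in both shGLO1 clones against shNT. Both passed the filter only through libraries of the shGLO1 clones and none of shNT, so these calls describe the genes and are no support for a pattern. MEIS1 had 1.28, 1.01 and 0.745 CPM in shGLO1#2, 1.79, 1.69 and 1.31 CPM in shGLO1#1 and 0.403, 0.261 and 0.277 CPM in shNT, with no overlap between shGLO1 clones and control. On the log2 scale it rose by 1.68 in shGLO1#2 (SE 0.37, adjusted p = 0.00248) and by 2.33 in shGLO1#1 (SE 0.34, adjusted p = 8.44e-05) against shNT. PKNOX2 averaged 0.764 ± 0.284 CPM in shGLO1#2, 1.21 ± 0.224 CPM in shGLO1#1 and 0.324 ± 0.103 CPM in shNT, and against shNT the log2 fold change of shGLO1#2 was 1.17 (SE 0.42, adjusted p = 0.0407) and that of shGLO1#1 was 1.85 (SE 0.38, adjusted p = 0.00140). The PKNOX2 call in shGLO1#2 ended with DESeq2 (adjusted p = 0.0898) and without shNT replicate 1 or 2, shGLO1#1 replicate 1, or shGLO1#2 replicate 1 or 3 (0.0547 to 0.143). The median log2 fold change of the 8 genes was 0.09 and 0.05 in shGLO1#2 and shGLO1#1 against shNT.

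The chromatin genes that hold HOX patterns were transcribed in every group and changed less than the call rule asks. Of 26 Polycomb genes, which keep HOX genes off, all were tested and edgeR called 0 in any of the 3 comparisons, and DESeq2 called 0. At an unadjusted p under 0.05 there were 12 in each comparison, 46.2% of the list, beside 46.3%, 52.5% and 53.1% of all genes tested in shGLO1#2 against shNT, shGLO1#1 against shNT and shGLO1#2 against shGLO1#1. EZH2, their histone methyltransferase, had 121 ± 11.98, 130.4 ± 6.31 and 129 ± 9.76 CPM in shGLO1#2, shGLO1#1 and shNT. Of 16 Trithorax and MLL genes and H3K27 demethylases, which keep HOX genes on, edgeR and DESeq2 called 0 as well, with 7, 4 and 7 at an unadjusted p under 0.05 in the same order of comparisons. KMT2A, the founding member, had 199.9 ± 15.9, 191 ± 9.59 and 182 ± 2.45 CPM. Both tools also called 0 of 8 insulator and cohesin genes, 5 of which passed an unadjusted p of 0.05 in each comparison.

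Retinoic acid switches HOX genes on from the low-number end in the embryo. Of 16 genes of its signalling, 9 were tested. DHRS3, which reduces retinaldehyde and is itself induced by retinoic acid, had 0.244, 0.223 and 0.434 CPM in shGLO1#2, 0.926, 0.979 and 1.31 CPM in shGLO1#1 and 2.62, 2.35 and 3.82 CPM in shNT. It fell in shGLO1#2 against shNT (log2 fold change -3.28, SE 0.34, adjusted p = 5.97e-06), in shGLO1#1 against shNT (-1.45, SE 0.26, adjusted p = 0.000528) and in shGLO1#2 against shGLO1#1 (-1.83, SE 0.40, adjusted p = 0.00202). DHRS3 passed the filter only through the libraries of shGLO1#1 and shNT, where it is higher. Its calls in shGLO1#2 against either group therefore describe the gene and are no support for a pattern. CYP26B1, which degrades retinoic acid, averaged 10.998 ± 0.758 CPM in shGLO1#2, 21.3 ± 2.99 CPM in shGLO1#1 and 9.83 ± 1.17 CPM in shNT and rose in shGLO1#1 against shNT (1.12, SE 0.13, adjusted p = 9.97e-06). Of the 8 ParaHox and EVX genes, cousins of the HOX genes, 7 had no count and GSX2 had 8, 6 and 6 counts in shGLO1#2, 4, 3 and 2 in shGLO1#1 and 0, 3 and 2 in shNT.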

How the data were processed

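The authors prepared the libraries with Illumina's TruSeq RNA chemistry, which keeps no strand information. Per the submitters' processing notes, base calls were converted by bcl2fastq 2.17, TopHat2 2.1.1 did the alignment, HTSeq the counting, and the build was hg19. For HTSeq, the version, strand setting and gene annotation were not given in the sources used here. Each deposited table holds the raw count of every gene symbol in 1 library, not normalized. Entries of the counter that name no gene were left out of totals and tests (12.8 to 15.2% on no feature, 1.50 to 1.95% ambiguous and 5.76 to 6.15% not unique, relative to all counted alignments).

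The analysis used edgeR 4.0.16 under R 4.3.3. The steps were filterByExpr by group (minimum count 10, minimum total 15, 13704 of 26364 genes kept), TMM scaling (factors 0.972 to 1.04), and a quasi-likelihood fit of all 9 libraries with no block. P-values were adjusted by Benjamini-Hochberg over all genes tested, and standard errors are the size of the log2 fold change over the root of F. The study's own thresholds (adjusted p 0.05, log2 fold change 1) set the calls. DESeq2 1.42.0 was an alternative. Other alternatives were no filter, a filter at a mean of 1 CPM, no TMM factors, only the groups compared, no fold limit, the replicate number as a block and leaving out each library. For the other gene lists these alternatives were added after the data were seen, and so was the rule that a group with 1 to 3 counts gets a ratio of group sums with an exact Clopper-Pearson 95% interval. The floor for a count of 0 is 3 counts. Both cover counting error only. The script was tested on simulated counts with known changes.

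Values per library were to be given for HOX genes called in any comparison and for the top gene of each cluster, and of other lists for up to 4 called members. Further HOX genes were shown after their values were seen, and some members of the HOX and other lists are not reported here. HOX genes and gene lists were chosen with earlier results of these data known. Flanking genes are the 5 nearest protein-coding genes on each side in the reference gene table (names only, with 38 matched to the count tables). Promoter windows are RefSeq sequences on GRCh38.p14, and exon lengths and overlaps are from GENCODE v29 on GRCh38. Both differ from the build of the counts, and no coordinate was converted.

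Libraries with the same replicate number were compared by the correlation of their deviations from group means. It was 0.21, 0.19 and 0.31 for shGLO1#2 with shNT, so the numbers pair these libraries by the data alone. For shGLO1#1 with shNT it was -0.03, 0.06 and 0.25, which does not pair them. For shGLO1#2 with shGLO1#1 it was 0.20, 0.07 and 0.34, and each library of shGLO1#2 was closest to its own number. There, shGLO1#1 replicate 2 was slightly closer to shGLO1#2 replicate 1 (0.075) than to shGLO1#2 replicate 2 (0.069), so that pairing is not settled.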

Additional observations from a re-analysis of the deposited data

Results flagged for a closer look

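The 2 shGLO1 clones differed in their changes against shNT at an adjusted p under 0.05 for 3 of the 11 HOX genes tested. This was by edgeR's quasi-likelihood test of shGLO1#2 against shGLO1#1. Of all genes tested, 46.5% passed the same limit in that comparison, a larger share than among the HOX genes. For HOXA13 the log2 fold change of shGLO1#2 minus that of shGLO1#1 was -2.42 (adjusted p = 0.000473), but the gene passed the filter only through the 3 libraries of shGLO1#1, where it is high, so this p is no support for a difference. For HOXB9 it was 0.66 (adjusted p = 0.00116), with the means of the clones on opposite sides of shNT. Against shNT, however, shGLO1#2 had an adjusted p of 0.0856, and the 0.0460 of shGLO1#1 stayed under 0.05 under some alternatives and not under others. For HOXC6 it was 0.52 (adjusted p = 0.0470), with both clones above shNT. Each value comes from 1 clone per hairpin, so a difference between hairpins and a difference between clones cannot be told apart.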

How the results depend on the processing

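With the replicate block, 3, 4 and 1 HOX genes were called in shGLO1#2 against shNT, shGLO1#1 against shNT and shGLO1#2 against shGLO1#1, the same genes as without it, and it changed no other call. No called change of HOXA13, HOXB6, HOXC5 or HOXC6 turned its sign under any alternative. Of values that were not called, HOXA13 in shGLO1#2 against shNT was -0.56 without shGLO1#2 replicate 2, and HOXC8 between the clones was 0.17 without shGLO1#1 replicate 1 and 0.09 without shGLO1#2 replicate 3. Keeping only genes that averaged 1 CPM, HOX calls were 1, 1 and 0, and with only the groups compared they were 1 and 2 for the clones against shNT, since the other called genes were no longer tested. Between the clones 3 were called with no fold limit and 3 with no filter. Leaving out 1 library gave 2 to 4, 2 to 4 and 1 to 2 HOX calls. Without shGLO1#2 replicate 2, HOXB6 was not tested, and without shGLO1#1 replicate 2 the HOXC6 change in shGLO1#1 against shNT was 0.96, under the fold limit.

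Calls of TALE cofactors against shNT were 0 in shGLO1#2 and 1 in shGLO1#1 with the filter at 1 CPM, and in shGLO1#2 they were 1 with DESeq2, 1 with only the groups compared and 1 to 3 when a library was left out. With no filter, 1 of 24 antisense and other noncoding transcripts and 3 of 38 flanking genes were called in shGLO1#1 against shNT. In shGLO1#2 against shNT 1 of 8 ParaHox and EVX genes was called. Genes with no count were not tested. In these fits, 7.29% of all 19581 genes were called in shGLO1#1 against shNT and 6.77% in shGLO1#2 against shNT. Flanking genes called were 0 in shGLO1#1 with no TMM factors and 0 to 1 without 1 library, and 0 in shGLO1#2 against shNT and against shGLO1#1 with the filter at 1 CPM. Retinoic acid genes called between the clones were 2 with no TMM factors and 1 to 2 without 1 library.

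Counts per exon length moved the shares of HOX counts. HOXB was 59.9, 48.1 and 59.6% and HOXD 21.5, 29.9 and 31.4% in shGLO1#2, shGLO1#1 and shNT. Paralogs 1 to 3 were 17.2, 22.3 and 24.3% and paralogs 4 to 8 were 36.3, 38.8 and 27.7%. HOXA13 was 0.233% in shGLO1#2, 1.74% in shGLO1#1 and 0.311% in shNT. Low counts limit HOXD12, HOXB2, HOXC13 and HOXB5 most, with 1, 6, 8 and 29 counts over the 9 libraries.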
